A study of Mus musculus with 2 samples.

Results

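The genes described here encode the chaperones of the endoplasmic reticulum (ER) and the proteins of the unfolded protein response. They are 33 genes given by symbol, and their probes were found by matching the transcript identifier of each probe on a mouse expression array to a gene symbol. All 33 were on the arrays, among 21360 genes that could be named in this way, with 40 of 28319 named probes and 49 spots. The ER folds proteins that a cell secretes or places in its membranes, and chaperones such as BiP hold unfinished chains there until they are folded. When unfolded chains build up, sensors in the ER membrane start the unfolded protein response. Its IRE1 branch splices the RNA of the transcription factor XBP1, its PERK branch slows translation and favours the factor ATF4 and then CHOP, and its ATF6 branch releases a factor by cleavage, and together these switch on chaperones, folding enzymes and the machinery that sends failed proteins to the proteasome. Blood-forming stem cells are known for a low rate of protein synthesis and for their sensitivity to misfolded protein.

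The study asked how gene expression in hematopoietic stem and progenitor cells differs between mice made diabetic with streptozotocin (STZ), a toxin of pancreatic beta cells, and nondiabetic mice. The cells were LSK cells of C57BL/6J mice, that is, bone marrow cells without the surface markers of mature blood lineages that carry Sca-1 and c-kit, sorted after a density gradient and removal of dead cells. Each condition was measured on 1 Agilent array, and each array had RNA of 3 mice according to its label, which gives 8.3 ng of total RNA as the input to amplification. For STZ diabetes, the methods describe a tail vein injection in citrate buffer and citrate buffer alone for control mice. The paper speaks of male mice, whereas the labels of both arrays say female. The age of the mice behind the arrays is not given in the sources used here.

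Of the 62976 spots on each array, 59305 were not controls and held 55681 probes. Of these spots the scanner software called 62.7% (nondiabetic) and 63.9% (diabetic) well above background, and the median intensities were 29.8 and 32.2. Values are given below as processed intensity, which is linear and background-subtracted but not yet scaled between arrays. For ratios, log2 intensity was scaled by the 75th percentile of each array, so that a log2 ratio above 0 means a higher scaled value on the diabetic array. An error after ± is the scanner software's own error of a spot, and carried into the log2 ratio of a listed probe it came to between 0.20 and 0.31, with a median of 0.20. This error hardly varied between most listed probes, with a lowest value of 0.204 and a median of 0.205. Setting a ratio against it therefore mainly restates the size of the ratio. The error covers neither the difference between mice nor that between sorts or amplifications. With 1 array per condition no test of the conditions could be made, so genes are described by size, with 2-fold as the limit, and probes well above background on 1 array only are given as bounds. Intensities depend on the probe, so those of different genes are not compared as amounts of RNA, and the sum or the highest intensity of a gene list is given only to describe that list.

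The gate of the sort was visible in the arrays. Kit, which encodes c-kit, had an intensity of 4635 on the nondiabetic and 4735 on the diabetic array, and Ly6a, which encodes Sca-1, had 475 and 701. In a list of 11 genes of stem and progenitor cells, 10 passed the background flag for nondiabetic and all 11 for diabetic mice, where the added gene was Slamf1, at 28.7 against 5.29. Of these markers 7 had a ratio above 0 and 4 below. Mecom, a transcription factor of stem cells, had 182 and 86.2 (log2 ratio −1.20) on its brighter probe and a ratio of −0.16 on the other, Ptprc, which encodes CD45, had 245 and 136 (−0.97), and Procr had 1788.5 and 1290 (−0.59). The lineage markers Ms4a1 of B cells, Cd8a of T cells and Ncr1 of NK cells were not well above background on either array. Other lineage genes were: Cd3e, of the T cell receptor complex, had 238 and 198, and Itgam, a myeloid surface integrin, had 34686 and 35189 on its brightest probe but 111 and 49.2 on another. RNA of some lineage genes was thus present on both arrays beside the markers of the gate.

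Most of the 33 genes had RNA in these cells. On their brightest probe 30 were well above background on both arrays, Hyou1 and Chac1 on the diabetic array alone, and Derl3 on neither, with intensities of 7.08 and 2.46. Of all 21360 named genes 13467 were well above background on both arrays. At least 2-fold lower on the diabetic array were 4 genes, Ddit3, Atf6b, Dnajc3 and Sdf2l1. The genes at least 2-fold higher were Eif2ak3, Trib3 and, as a bound, Hyou1. This makes 4 of 32 genes with a value (12.5%) lower, where 10.1% of all 15192 named genes with a value were, and 3 of 32 (9.38%) higher, where 11.0% of all were. Both shares lay near the background, and the direction was evenly split, with 16 listed genes above 0 and 16 below. The median log2 ratio over the 30 genes measured on both arrays was −0.23, with the middle 50% between −0.70 and 0.34, and over all named genes it was 0.01. By probe, 4 of the 38 with a value passed 2-fold upward and 4 downward, against 11.9% and 10.9% of all named probes. The sign of the median turned by probe: it was 0.05 over the 35 measured on both arrays, and 22 of the 38 were above 0 and 16 below. With normexp background correction, whose added offset draws ratios of dim probes toward 0, the shares changed: 4 of 32 (12.5%) were still lower, where 3.29% of all named genes were, and 0 were higher, where 3.96% of all were. That setting differs in the background model, in an added offset and in the spot signal it starts from, and which of these moved the shares was not tested. A change in the kinds of cells in the sort and a change of RNA per cell cannot be told apart in such bulk samples.

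How far a ratio can be read depended on the intensity. The genes measured on both arrays were put into 3 groups of equal size by mean intensity. Of all named genes, 23.9% of the dimmest and 22.9% of the middle group were past 2-fold in either direction, but only 6.86% of the brightest group. Many listed genes were bright: 15 of the 30 fell in the brightest group, and 2 of these, Dnajc3 and Sdf2l1, were past the limit (13.3%). The middle group held 12 listed genes with 2 past the limit, Atf6b and Trib3, and the dimmest group held 3 with 2 past the limit, Ddit3 and Eif2ak3. Where a probe was printed 5 times or more, its spots could be set against each other, and the median SD of their log2 ratios was 0.24 in the dimmest, 0.12 in the middle and 0.06 in the brightest group. Only Creld2 among the listed genes was printed more than once.

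**Figure D1:**
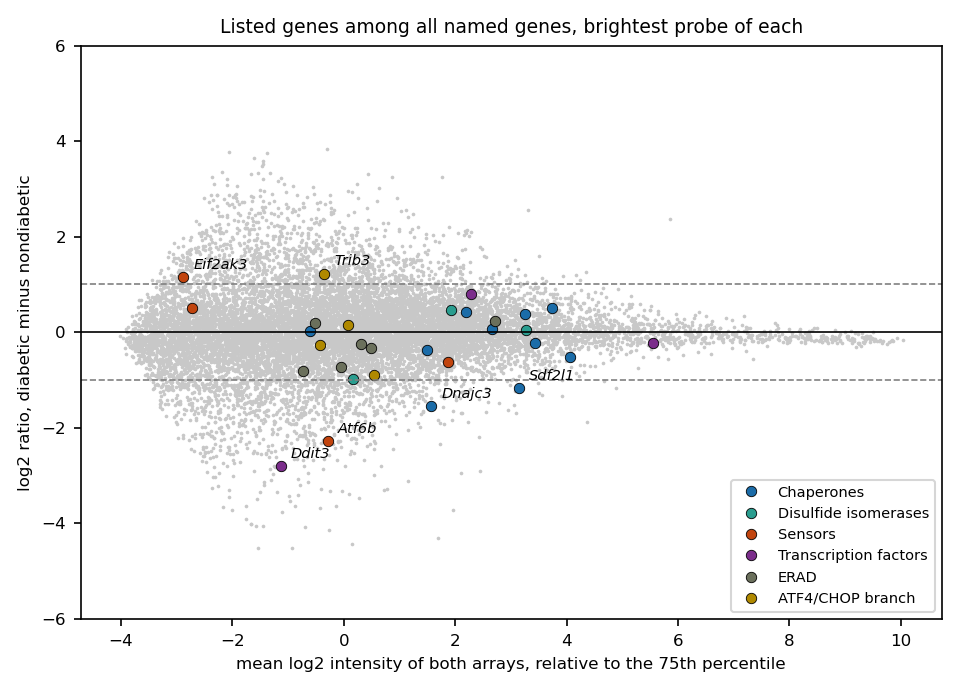
The log2 ratio (diabetic minus nondiabetic) of each named gene measured on both arrays is set against its mean log2 intensity relative to the 75th percentile, with 13467 genes in grey, the 30 listed genes among them coloured by role and 2-fold marked by dashed lines. The 6 listed genes past 2-fold are named, and of these Sdf2l1 and Dnajc3 lie among the brighter genes, where the cloud is narrow.

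Among the sensors the values went both ways. Eif2ak3, which encodes PERK, the kinase that phosphorylates the translation factor eIF2 alpha under ER stress, had an intensity of 15.2 ± 2.71 on the nondiabetic and 36.6 ± 4.29 on the diabetic array, 2.22-fold higher after scaling. The probe was dim, and its log2 ratio of 1.15 had the largest error of the listed probes, 0.31. With normexp the ratio was 0.37 and no longer past the limit. Ern1 encodes IRE1 alpha, the kinase and RNase that splices Xbp1. Its intensity was 764 on the nondiabetic and 538 on the diabetic array, a log2 ratio of −0.62. For Atf6, the membrane-bound factor released by cleavage, the intensities were 21.3 and 33.1, with a log2 ratio of 0.52 and an error of 0.26. With normexp the ratio of Atf6 was 0.16, smaller than that error. Its relative Atf6b, a weaker activator that also sits in the ER membrane, had 304 ± 30.5 on the nondiabetic and 67.7 ± 7.22 on the diabetic array. That is a 4.86-fold lower value, with a log2 ratio of −2.28, and it kept its side of the limit under every alternative tried, with −1.55 under normexp. The sensors of the response were thus not moved in 1 direction: PERK and ATF6 had higher values on the diabetic array and IRE1 and ATF6 beta lower ones, with only Eif2ak3 and Atf6b past 2-fold.

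Of the transcription factors, only Ddit3 was past the limit. It encodes CHOP, which the PERK branch induces through ATF4 and which is known for its part in cell death under lasting stress. Its intensity was 203 ± 20.4 on the nondiabetic and 31.4 ± 3.92 on the diabetic array, a 6.99-fold lower value with a log2 ratio of −2.81. Under normexp the ratio was smaller, −1.52, and still past the limit. Atf4 itself, the factor above it, did not follow: its bright probe had 8531.5 and 7938 (log2 ratio −0.22) and a dimmer one 219 and 272 (0.19). These probes had opposite signs, and each ratio was about the size of its error. Xbp1, the factor of the IRE1 branch, was on the other side, with 620.3 ± 62.1 on the nondiabetic and 1171 ± 117 on the diabetic array. Its log2 ratio of 0.80 was inside the 2-fold limit. Whether the probe tells spliced from unspliced Xbp1 RNA is not given in the sources used here, and the array reads neither splicing nor the phosphorylation and cleavage by which the sensors act.

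The chaperones and their partners were 11 genes, with a median log2 ratio of −0.10. Of these, 1 was past the limit upward and 2 downward, where 11.0% and 10.1% of all named genes were. Hspa5 encodes BiP, the central Hsp70 chaperone of the ER and the usual readout of ER stress. Its intensity was 1958 ± 196 on the nondiabetic and 1805 ± 180.5 on the diabetic array. The log2 ratio of −0.23 was about as large as its error of 0.20. Hsp90b1, the ER member of the Hsp90 family also called GRP94, had 3357 and 2550.1, with a log2 ratio of −0.51. The lectin chaperones, which hold newly made glycoproteins through their sugars, were on the other side of 0. Calr, the soluble calreticulin, had 1399 and 1969 (log2 ratio 0.38), and Canx, its membrane-bound relative calnexin, had 1887 and 2924 (0.51). BiP and GRP94 on the one hand and calreticulin and calnexin on the other therefore had opposite signs, all of them inside 2-fold.

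Partners of BiP held the chaperones past the limit. Dnajc3 encodes p58IPK, a J protein of the ER lumen that works with BiP and is known as an inhibitor of PERK. Its intensity was 847 ± 84.7 on the nondiabetic and 315 ± 31.6 on the diabetic array, 2.92-fold lower. Sdf2l1, an ER-resident partner of J proteins that is strongly induced by ER stress, had 2229 ± 223 and 1071 ± 107, 2.26-fold lower. Both were in the brightest group, with log2 ratios of −1.54 and −1.18 and errors of 0.20. Hyou1, the large chaperone GRP170 that exchanges nucleotides on BiP, was dim: 25.8 on the diabetic array against 10.8, not well above background, on the nondiabetic array, which makes it at least 2.20-fold higher. Under normexp that bound came to a log2 ratio of 0.33. The other J proteins were close to equal or slightly higher. Dnajb11, which encodes the abundant ERdj3, had 668 and 966 (log2 ratio 0.42), and 2.35 and 2.32, not well above background on either array, on another probe. Dnajb9, which encodes ERdj4 and is a target of XBP1, had 109 and 121 (0.03) on one probe and 95.0 and 133 (0.37) on the other. Manf, a small ER protein that binds BiP, had 1040.3 and 1176 (0.06).

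Creld2, an ER-resident protein induced by stress, offered the only look at spread among the listed genes. Its probe was printed 10 times. The spots ranged from 509 to 599 on the nondiabetic array, with a median of 541, and from 431 to 469 on the diabetic array, with a median of 456, so the spots of the arrays did not overlap before scaling. Their log2 ratios ran from −0.48 to −0.29, around a mean of −0.37 with an SD of 0.06. A difference of this size was thus seen in every spot of these 2 arrays, which says nothing of how much the mice differ.

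The protein disulfide isomerases, which form and rearrange disulfide bonds, did not move together either. Pdia3, the partner of calnexin and calreticulin, had 1590 on the nondiabetic and 1784 on the diabetic array, with a log2 ratio of 0.05. Pdia6 had 541 and 809.7 (0.47) on its brighter probe and 22.5 and 29.4 (0.27) on the dim one. Pdia4, also called ERp72, had 263 ± 26.5 and 145 ± 14.7. Its log2 ratio of −0.98 lay just inside the limit and was the lowest of the 3.

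Genes of ER-associated degradation, the export of failed proteins to the proteasome, were all inside the limit on their brightest probe, with a median log2 ratio of −0.30 over the 6 with a value. Syvn1 encodes HRD1, the ubiquitin ligase at the centre of this pathway. Its intensity was 210 on the nondiabetic and 138 on the diabetic array, a log2 ratio of −0.73. Sel1l, the adaptor that holds HRD1 in place, had 264 and 226 (−0.34), and Herpud1, which joins the same complex, had 227 and 207 (−0.25). Edem1, which hands misfolded glycoproteins to it, had 134 and 83.3 (−0.80). The derlins are membrane proteins of the export channel. Derl2 had log2 ratios of 0.24, 0.36 and 0.21 on its 3 probes, from 1012 and 1300.4 on the brightest. Derl1 had 111 and 137 (0.19) on its brighter probe. On its other probe it had 39.1 on the diabetic array against 2.48, not well above background, on the nondiabetic array, which makes that probe at least 3.53-fold higher. None of the brightest probes passed the limit, the ratios of Herpud1, Derl1 and Derl2 were close to their errors of about 0.20, and the Derl1 probes differed past 2-fold.

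The feedback and target genes of the ATF4 and CHOP branch were also split. Trib3, a pseudokinase that ATF4 and CHOP induce and that restrains them, had 85.8 ± 8.93 on the nondiabetic and 218 ± 22.0 on the diabetic array, 2.34-fold higher with a log2 ratio of 1.23. Under normexp its ratio was 0.79, inside the limit. Asns, the asparagine synthetase that ATF4 induces when amino acids are short, had 335 and 196, a log2 ratio of −0.89. Ddit3 and Trib3, both known targets of the branch, thus passed the limit in opposite directions. Chac1, which degrades glutathione, had 11.3 on the diabetic array and 3.74, not well above background, on the nondiabetic array, a bound of 1.02-fold that carries almost no information. The phosphatase subunits that reverse the phosphorylation of eIF2 alpha had values near equal: the inducible Ppp1r15a had 169 and 204 (log2 ratio 0.15) and the constitutive Ppp1r15b had 137 and 123 (−0.27).

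**Figure D2:**
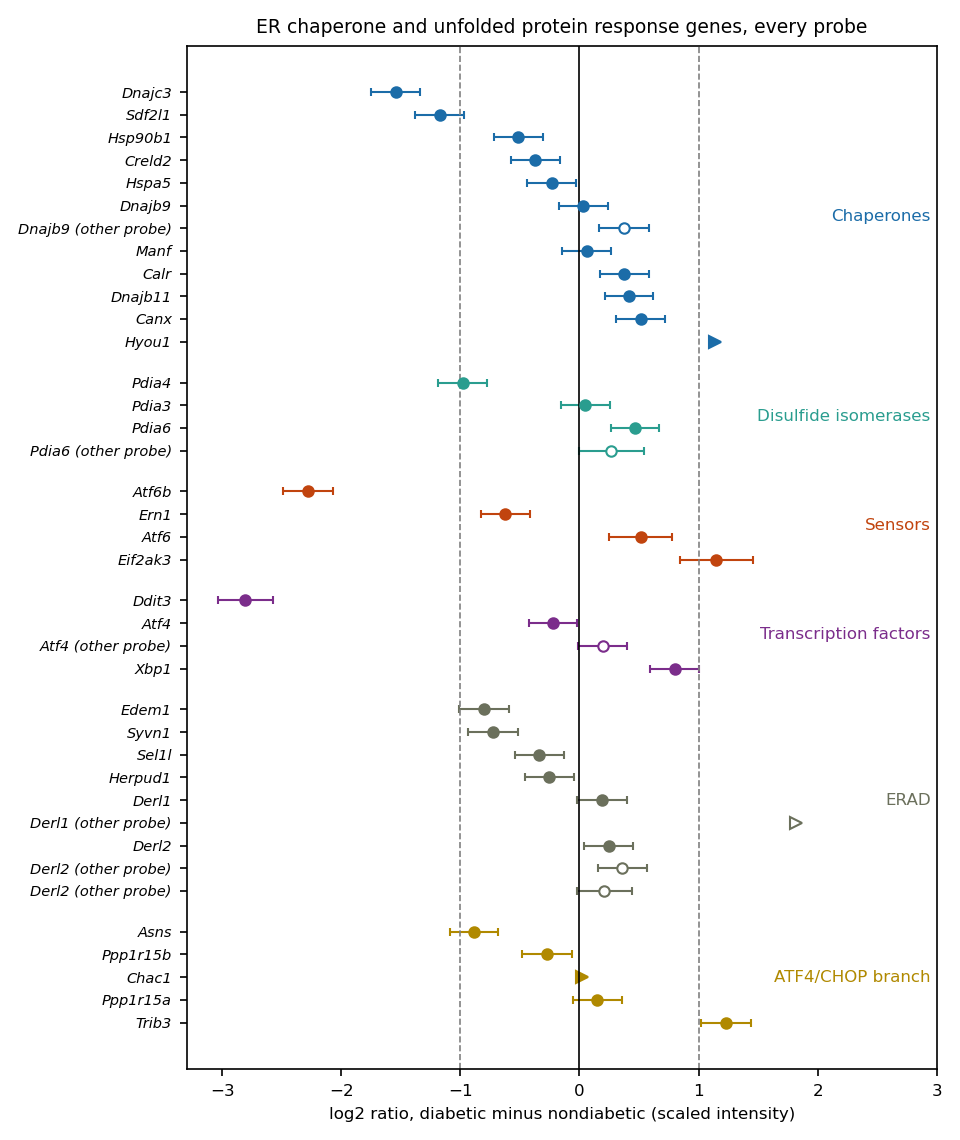
Log2 ratio (diabetic minus nondiabetic, scaled intensity) of the 38 probes of the listed genes with a value, grouped by role. Circles are probes measured on both arrays with the error from the scanner software as bars, triangles are the 3 lower bounds, open symbols are further probes of a gene, dashed lines mark 2-fold, and every role except the disulfide isomerases and ERAD holds at least 1 gene past it on its brightest probe.

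Several probes of a gene allow a check within the arrays. Of the 4 listed genes with more than 1 probe measured on both arrays, 0 had probes at least 2-fold apart, and 1, Atf4, had probes of opposite sign. Over all 3245 named genes of that kind, 35.4% had probes at least 2-fold apart and 48.9% had opposite signs. Derl1 is outside the 4 because 1 of its probes gave only a bound. With bounds counted, 5 listed genes had several probes with a value, and the probes of 1, Derl1, differed past 2-fold. Each of the 7 listed genes past 2-fold rested on a single probe printed once, so that none of them had such a check.

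Other genes of ER folding were mostly inside the 2-fold limit on their brightest probe. In a list of 25 further folding enzymes and chaperones all were measured on both arrays. On brightest probes 1 passed the limit upward and 0 downward, and the median log2 ratio was 0.16. The background shares over the named genes were 11.0% upward and 10.1% downward. The brightest group, with a share of 6.86% in either direction, held 12 of the 25. Whether the list differed from that background was not tested. The gene past the limit was Ero1b, an oxidase that recharges the disulfide isomerases, with 125 on the nondiabetic and 411 on the diabetic array (log2 ratio 1.60). Ganab, a glucosidase that trims glycoproteins for calnexin, had the highest intensity of that list, 1194 and 1824 (0.49), and its other probe had a ratio of −0.14. Further probes of Txndc11 (140.2 and 37.9, −2.01) and Uggt1 (67.8 and 26.8, −1.46) were past the limit downward, and with the mean over probes 1 gene was lower. Of 25 genes of the translocon and the oligosaccharide transferase, through which chains enter the ER and receive their sugars, 0 were higher and 1 was lower, with a median of −0.05. It was Stt3a, a catalytic subunit of the transferase, with 704.6 and 274 (−1.48), while Rpn1, another subunit, had 5666 and 7561 (0.30). Further probes of Sec63 (1.19), Spcs2 (1.16) and Ssr1 (1.11) were past the limit upward, whereas the brightest probe of each was inside it.

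In the wider ER-associated degradation machinery, 3 of 23 genes with a value were at least 2-fold higher and 4 lower, where 11.0% and 10.1% of all named genes were. The median log2 ratio of the list was 0.06. The ligases of the ER membrane went both ways: Rnf5 had 235 on the nondiabetic and 1001.5 on the diabetic array (1.97), and Rnf185 had 183 and 75.1 (−1.40). Vcp, the ATPase that pulls proteins out of the membrane, had 1775 and 2540 (0.40). With normexp 1 gene of this list was lower in place of 4, and a further probe of Faf2 (1.09) was past the limit upward and one of Ufd1 (−1.31) downward. Ube2j1, counted as lower from its brightest probe (1204 and 632, −1.05), had ratios of 1.31 and 0.35 on its other probes. Partners of the sensors gave 2 higher and 3 lower of 18, with a median of 0.20 that turned to −0.05 without the filter on dim probes and was 0.34 with the mean over probes. With the mean or median over probes 3 partners were higher and 2 lower. Creb3l2, a membrane-bound factor related to ATF6, had the largest ratio there, with 274 and 35.4 (−3.07). Traf2, an adaptor that binds IRE1, had 90.5 and 277, 2.82-fold higher, and Nfyc, a subunit of the factor that binds CCAAT boxes, had 96.3 and 430.2 (2.04) on one probe and a ratio of 0.30 on another. With normexp 1 gene of this list was higher in place of 2. Mbtps1, counted as lower from its brightest probe (−1.26), had a ratio of 0.91 on another. A further probe of Nfyb (1.33) was past the limit upward, with 0.08 on its brightest. Map3k5, the kinase ASK1 downstream of IRE1, had 2974 and 2584 (−0.32), and 12.4 and 76.8 (2.51) on a dim probe.

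The other kinases and factors of eIF2 gave 1 higher and 2 lower of 16, where 11.0% and 10.1% of all named genes were. Their median log2 ratio was 0.00. With normexp 0 were lower, where 3.29% of all named genes were, so the lower genes named next were then inside the limit. Eif2ak4 encodes GCN2, the eIF2 kinase for lack of amino acids. Its intensity was 90.9 on the nondiabetic and 22.0 on the diabetic array (log2 ratio −2.17). Its inhibitor Impact had 226 and 119 (−1.05), and Nck1, an adaptor that also acts on eIF2 phosphorylation, had 58.1 and 323 (2.36). Eif2s3x, a subunit of eIF2, had 3063 and 2816 (−0.24).

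Further targets of ATF4 had more genes below the limit than above it, with 1 of 29 at least 2-fold higher and 6 lower, where 11.0% and 10.1% of all named genes were, and 18 of 29 had a ratio below 0. Their median log2 ratio was −0.32. Shmt2, an enzyme of mitochondrial serine and folate metabolism, had 1027 on the nondiabetic and 313 on the diabetic array (−1.83). Bbc3, which encodes the cell death protein PUMA and answers to p53 as well, had 1253 and 267 (−2.35). The other genes past the limit, Cebpg (−1.70), Mthfd2 (−1.35), Psph (−1.32, and −0.26 on its other probe) and Mars1 (−1.22), were named after their values were seen. They encode a partner of ATF4, enzymes of one-carbon and serine synthesis, and a tRNA synthetase. On the other side, Nupr1, a small stress protein, had 286 and 1273 (2.04). Gars, a tRNA synthetase with the highest intensity of the list, had 2914 and 2318 (−0.45), inside the limit. Asns and Ddit3 lay on the lower side as well and Trib3 on the upper. Further probes of Vldlr (20.3 and 49.9, 1.18, past the limit upward), Wars (0.99) and Psat1 (0.31) were above 0. The brightest probe of each was below 0 (−0.75, −0.31 and −0.73). Those of Phgdh (−0.19) and Slc7a5 (0.03) had the sign of the brightest probe. Where each gene was given the mean of its probes, the list's median was −0.17 with 5 genes lower, and with normexp it was −0.25 with 4 genes lower.

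Chaperones outside the ER served as a comparison. Of the 20 cytosolic heat shock genes on the arrays, 18 had a value and 0 were past the limit in either direction, with a median log2 ratio of 0.04. Of these 18, 13 were in the brightest group, where 6.86% of all named genes were past it. Single further probes did pass it: another probe of Dnaja2 had 14.5 and 128 (3.03) and another of Hsph1 had 267 and 144 (−1.01), and with the mean over probes 1 gene was at least 2-fold higher. Hsp90ab1, the constitutive cytosolic Hsp90, had 16380 on the nondiabetic and 17959 on the diabetic array (0.02). Of 13 mitochondrial chaperones and proteases 2 were higher and 1 was lower, where 11.0% and 10.1% of all named genes were. Their median log2 ratio was 0.42. With normexp 0 were past the limit in either direction, where 3.96% of all named genes were higher and 3.29% lower. The median was then 0.28, and none of the calls named next held. The protease subunits Clpp (35.4 and 99.4, log2 ratio 1.37) and Clpx (88.5 and 34.6, −1.47) had opposite signs, the protease Yme1l1 had 92.4 and 258 (1.36), and the chaperonin subunit Hspe1 had 5717 and 6299 (0.02).

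Genes of other cell types moved beside these values. Plasma cells are known for a very large ER, and of 12 markers of plasma and B cells 10 had RNA well above background in nondiabetic and 8 in diabetic mice. Jchain, the joining chain of secreted antibodies, had 694 on the nondiabetic and 254 on the diabetic array (log2 ratio −1.57), and Mzb1, an ER protein of antibody-secreting cells that works with GRP94, had 135 and 51.9, 2.83-fold lower. Irf4 was at least 7.06-fold lower, from 65.5, and Tnfrsf17 at least 3.68-fold lower, from 34.1, and neither was well above background on the diabetic array. Prdm1, the list's highest intensity, had 2189 and 2423 (0.03), while Cd79a had 39.3 and 121 (1.51), and Ebf1 and Ms4a1 were well above background on neither. The summed intensity of the list was 3370 and 3106. Sdc1, a surface marker of plasma cells, went the other way, with 35.1 and 71.7 (0.92). Of the 10 genes with a value 5 had a ratio above 0 and 5 below. The median log2 ratio over the 8 measured on both arrays was 0.12. Past 2-fold, 1 gene was higher and 4 were lower, where 11.0% and 10.1% of all named genes were. The markers of this list thus did not share a direction, and their part in the values of the listed genes was not tested.

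The markers of further cell types went both ways. Of 10 granulocyte and monocyte markers on the arrays, 10 were well above background on the nondiabetic and 9 on the diabetic array, with summed intensities of 44499 and 43351, of which 34686 and 35189 were the brightest probe of Itgam. In that list 7 of 10 ratios were below 0, among them S100a8 with 52.2 and 20.4 (log2 ratio −1.48) and Mpo with 2731 and 1851 (−0.68). The erythroid list had 6 of 7 genes well above background on both arrays, led by Hba-a1 at 1984 and 4967, and a sum of 3420 and 7282. The T and NK cell list had 4 and 3 of 7, without Cd8a and Ncr1, and a sum of 1284 and 1256, of which Cd4 made up 971 and 1019. Of its 5 genes with a value 4 had a ratio below 0, and Cd3d and Cd3g, of the T cell receptor complex, were each at least 2.74-fold lower as bounds. The stroma and endothelium list had 5 of 8 on each array and sums of 1372 and 2077. Kdr had 844 and 848, and Pecam1, the only one of the 5 genes with a ratio above 0, had 162 and 936. Col1a2 had 85.2 and 43.9 (−1.07), and Cdh5 and Col1a1, which define endothelium and fibroblasts, were well above background on neither. For the stem and progenitor list the sums were 18295 and 21530. The part of these genes in the values of the listed genes was not tested.

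What many of the listed genes share is an element in their promoters. The ER stress response element, bound by ATF6 together with the CCAAT-binding factor NF-Y, is CCAAT, 9 bases of any kind, then CCACG. It was searched on both strands, with no mismatch, in promoter windows from RefSeq (build GRCm38.p6) that run from 250 bases before to 50 bases after the start of a gene. Of the 33 listed genes 28 had a window. The element was in 9 of these 28 (32.1%), and in 39 of all 32851 windows (0.119%), or 37 of 27025 genes, so that 24.3% of all genes with it were listed genes. The 9 genes were Hspa5, Hsp90b1, Calr, Canx, Pdia6, Dnajc3, Creld2, Syvn1 and Derl3. Both boxes at any distance were found in 19 of the 28 listed genes (67.9%), and in 13.3% of all genes with a window. Genes of this response are widely known as targets of ATF6 and XBP1, so the share is a property of the list and not a finding about diabetes.

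The promoter of Hspa5 is shown because it is the best known of these. The stretch is the last 150 bases before its start, chr2:34771940-34772089 on the + strand, with the boxes of the element in capitals. It also holds 1 further CCAAT box, left in lower case.
Hspa5: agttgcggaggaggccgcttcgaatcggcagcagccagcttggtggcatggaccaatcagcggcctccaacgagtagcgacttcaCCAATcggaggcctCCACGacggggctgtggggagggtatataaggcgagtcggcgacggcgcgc
The next stretches show how the element varies in place and strand, each with 10 bases on either side and in the direction of its gene, with the boxes in capitals. Where the element lies on the opposite strand, the boxes read CGTGG and ATTGG. Dnajc3 had the largest ratio among the listed genes with the element, and Hsp90b1 carries 2 elements.
Dnajc3: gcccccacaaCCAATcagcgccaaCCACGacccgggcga
Canx: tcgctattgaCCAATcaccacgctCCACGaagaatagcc
Hsp90b1 far: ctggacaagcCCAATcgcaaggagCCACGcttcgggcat
Hsp90b1 near: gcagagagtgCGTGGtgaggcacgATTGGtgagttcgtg
Calr: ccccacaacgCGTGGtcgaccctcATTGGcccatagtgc
They lie at chr14:118937817-118937855 (+ strand) for Dnajc3, chr11:50325790-50325828 (− strand) for Canx, chr10:86705628-86705666 and chr10:86705523-86705561 (− strand) for Hsp90b1, and chr8:84847065-84847103 (− strand) for Calr. The elements begin 105 bases before the start in Dnajc3, 145 in Canx, 212 and 107 in Hsp90b1 and 162 in Calr, and 65 in Hspa5.

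**Figure D3:**
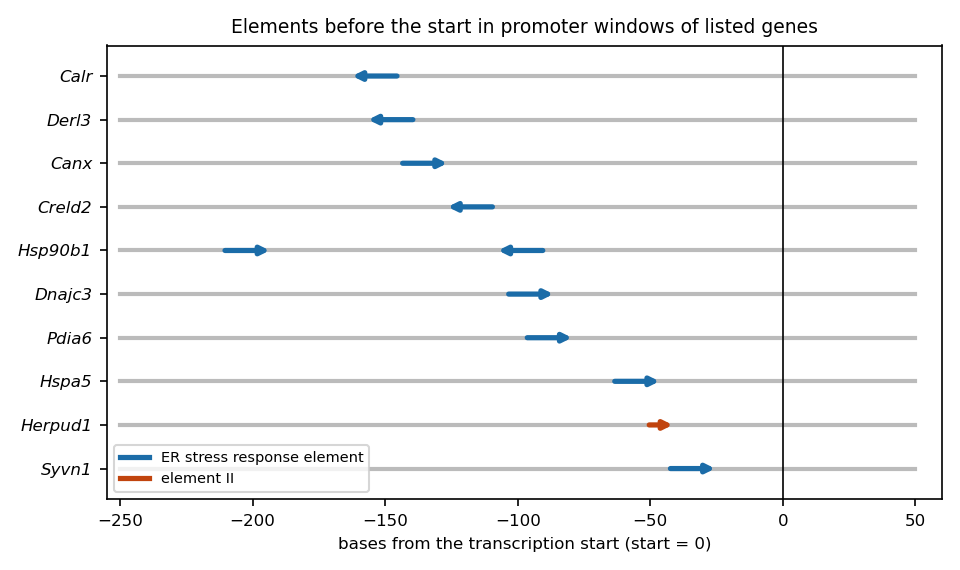
Position of the ER stress response element (blue) and of its second form (red) before the start in the promoter windows of listed genes, in bases from the start, with the whole window of 250 bases before to 50 after it in grey. Arrows give the strand on which the element reads; Hsp90b1 has 2 elements on opposite strands, and the red arrow is that of Herpud1.

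Genes with the element did not share a direction. Of the 8 with a value, 3 had a log2 ratio above 0 and 5 below, from −1.54 for Dnajc3 to 0.51 for Canx, with a median of −0.30 and 1 gene past 2-fold. The 19 listed genes with a window but no element had 9 above 0 and 10 below and a median of −0.24. Among genes outside the list, 17 on the arrays had the element and 11 of them a value, with 4 at least 2-fold higher, Ero1b, Pan2, Xlr3b and, as a bound, Tdrd9, and 0 lower, where 11.0% and 10.1% of all named genes were. The median log2 ratio of these few genes was 0.24, and only Ero1b among the 4 is in a list of ER genes used here.

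Further elements were chosen after the arrays had been seen. The second form of the ER stress response element is ATTGG, 1 base of any kind, then CCACG. It was in 2 of the 28 listed genes with a window (7.14%), Herpud1 and Dnajb11, and in 12 of all 27025 genes (0.0444%). It overlapped the first form in 0 windows. The C/EBP-ATF response element bound by ATF4 and CHOP was searched as TGATGNAAN. It was in 4 of the 28 listed genes (14.3%), Chac1, Trib3, Asns and Herpud1, and in 4.50% of all genes with a window. The stretches of Herpud1 for the second form, with its boxes in capitals, and of Asns for the ATF4 element, with its letters in capitals, are these.
Herpud1: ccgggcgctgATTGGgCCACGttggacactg
Asns: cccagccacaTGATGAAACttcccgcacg
They lie at chr8:94386367-94386397 (+ strand) and chr6:7693214-7693242 (− strand). The log2 ratios of the 4 genes with the ATF4 element were again of both signs, with Trib3 at 1.23, Asns at −0.89, Herpud1 at −0.25 and Chac1 as a bound near 0.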

How the data were processed

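The authors deposited 2 scanner files, written by version 11.5.1.1 of Agilent Feature Extraction, that hold processed intensities, background-subtracted within the array, and a table whose columns were these intensities times 1 constant each. Spots flagged as outliers were dropped (192 on the nondiabetic and 147 on the diabetic array, 0 of them spots of listed genes). Log2 intensity minus the 75th percentile of the array (168 and 182) was averaged over spots of a probe. Ratios are diabetic minus nondiabetic. Where the flag for background was passed on 1 array only, the ratio is a bound against the higher of its own value and the lowest intensity well above background there (10.2 and 10.1). A gene's brightest probe stood for it. Probes were named by transcript identifier through a RefSeq table of GRCm38.p6. The grid of the array is mm9, so no gene coordinates are given.

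No test was possible with 1 array per condition, and that number limits the precision. Both arrays were on 1 slide and in 1 scan. The members and lists were chosen with earlier results of these data known. From each related list, the text names up to 3 genes with the largest ratio past 2-fold on a brightest probe measured on both arrays and the gene with the highest intensity. Some genes that this rule or the marker lists take are not reported here. The alternatives were normexp (offset 50) on the median spot and local background intensities, quantile normalization, centring on the median ratio, loess, the authors' table, no filter on dim probes, only probes measured on both arrays, and the mean or median over a gene's probes. Steps were tested on simulated data. Python 3.11.15 (numpy 2.4.6, pandas 2.3.3, matplotlib 3.10.9) and R 4.3.3 (limma 3.58.1) were used.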

Additional observations from a re-analysis of the deposited data

How the results depend on the processing

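The 4 members lower past 2-fold kept that side under all 9 alternatives, and the 32 members with a value kept their sign wherever they had one. With normexp, whose offset shrinks ratios of dim probes, 0 members and 0 member probes were at least 2-fold higher, in place of 3 and 4, and over all named genes 597 were higher and 497 lower in place of 1667 and 1538, so that the lower share of the members (12.5%) stood against 3.29% in place of 10.1%. With only probes measured on both arrays, 2 member probes were higher, since bounds leave. Without a filter on dim probes, Derl3 and Chac1 passed the limit, and with the mean or median over probes Derl1 did. The median over members ranged from −0.24 to −0.12. Of 285 log2 ratios of single members under the alternatives 260 moved by less than the spot SD, as did 65 of 72 medians of related lists, and of 144 counts of related lists 135 were within 1.5 times the main count. With the mean or median over probes, the other folding genes had 1 lower and the cytosolic heat shock genes 1 higher, in place of 0. With normexp the wider degradation list had 1 gene lower in place of 4, the sensor partners 1 higher in place of 2, the eIF2 list 0 lower in place of 2, the further ATF4 targets 4 lower in place of 6, and the mitochondrial list 0 in either direction, in place of 2 higher and 1 lower. No scaling moved the median of all named genes by as much as 0.1. No paired analysis was possible because nondiabetic and diabetic mice have 1 array each. Intensities near background limit Eif2ak3, Hyou1, Atf6, Chac1 and Derl3. The low intensity of Ddit3 on the diabetic array (31.4) limits the size of its ratio, which went from −2.81 to −1.52 with normexp.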
